A study of Mus musculus with 48 samples.

Results

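The let-7 family was one of the first groups of microRNAs described, and it is named for a gene that times larval development in worms. A microRNA is cut from a hairpin precursor by Drosha and Dicer, and 1 strand of the resulting duplex, the guide, is loaded into an Argonaute protein that it directs to matching messenger RNAs, mostly through the short seed near its 5′ end. In vertebrates let-7 guides are low in stem cells, where LIN28 proteins block the processing of many let-7 precursors, and become abundant as cells differentiate, so that mature neurons hold much of them. The members described here are the 9 rows of the mouse miRNA count table named mmu-let-7a-5p, mmu-let-7b-5p, mmu-let-7c-5p, mmu-let-7d-5p, mmu-let-7e-5p, mmu-let-7f-5p, mmu-let-7g-5p, mmu-let-7i-5p and mmu-miR-98-5p, of 1978 miRNA rows in all. They were chosen by name. They are called let-7a to let-7i and miR-98 from here on.

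The libraries came from Balb/c mice aged 2.5 months that received 0.2 mL of saline or of lipopolysaccharide (LPS, from E. coli O55:B5, 2.5 mg/kg in saline) into the peritoneum. LPS is a bacterial outer membrane component that sets off systemic inflammation. The superior cervical ganglia (SCG, sympathetic) and the trigeminal ganglia (TG, which hold the sensory neurons of the face) were taken 4 h, 24 h or 7 d later, which gives 12 groups of 4 small RNA libraries, 48 in all. Each library held the pooled ganglia of 1 kind from 1 mouse, replicates 1 and 2 of a group came from females and replicates 3 and 4 from males. SCG and TG libraries of the same mouse cannot be matched from the labels.

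The 9 guide strands are printed in full because they are so alike that the counts of one member depend on how reads were told apart from those of another. All 9 matched a mature miRNA by name in RefSeq (GRCm38.p6). Capitals mark the seed, bases 2 to 8 counted from 1 at the 5′ end.
let-7a-5p: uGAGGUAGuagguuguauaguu
let-7b-5p: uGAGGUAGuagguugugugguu
let-7c-5p: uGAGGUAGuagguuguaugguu
let-7d-5p: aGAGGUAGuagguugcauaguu
let-7e-5p: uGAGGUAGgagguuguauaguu
let-7f-5p: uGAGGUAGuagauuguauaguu
let-7g-5p: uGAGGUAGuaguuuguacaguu
let-7i-5p: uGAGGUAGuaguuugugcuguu
miR-98-5p: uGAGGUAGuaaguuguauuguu

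All 9 are 22 bases long and share the seed GAGGUAG. Of 1679 mature mouse names in the RefSeq table, 11 (0.655%) have those 7 bases at positions 2 to 8, and the other two were let-7k, with 651 counts over the 48 libraries, and miR-1961, with 2 counts. Written from let-7a to the other member, let-7c differs by A19G, let-7e by U9G and let-7f by G12A. Let-7b differs from let-7a by A17G and A19G, let-7d by U1A and U16C, let-7g by G12U and U18C, and miR-98 by G11A and A19U. Let-7i is the farthest from let-7a, with G12U, A17G, U18C and A19U. Among the 36 pairs of members, 4 pairs differ at a single base, 10 at 2 bases and 11 at 3 bases. How the authors assigned a read that fits 2 members is not given in the sources used here, so a call that rests on 1 member of a pair 1 base apart carries that uncertainty.

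The hairpins lie at scattered loci, some of them shared by several members, and the positions here are those of GRCm38.p6, while the submitters' processing notes name GRCm39. On chromosome 13, Mirlet7a-1 (chr13:48538179-48538272), Mirlet7f-1 (chr13:48537829-48537917) and Mirlet7d (chr13:48536012-48536114) each overlap an exon of the long noncoding RNA 6720427I07Rik on the minus strand. On chromosome 15, Mirlet7c-2 (chr15:85706603-85706697) and Mirlet7b (chr15:85707319-85707403) sit 622 bases apart on the plus strand, in exons of the noncoding RNA Lncppara. On the X chromosome, Mirlet7f-2 (chrX:151912346-151912428) and Mir98 (chrX:151913214-151913321) sit 786 bases apart in an intron of Huwe1, which encodes a ubiquitin ligase. Mirlet7c-1 (chr16:77599657-77599750) lies in an intron of Mir99ahg, 657 bases from Mir99a, and Mirlet7e (chr17:17830352-17830444) lies in an intron of Spaca6, 368 bases from Mir125a. Mirlet7a-2 (chr9:41536716-41536811) shares its noncoding host with Mir100, 5212 bases away. Mirlet7g (chr9:106178840-106178927) lies in an intron of Wdr82, and Mirlet7i (chr10:122985640-122985724) in an exon of the pseudogene D630033A02Rik. Let-7a, let-7c and let-7f thus each come from more than 1 hairpin, and a count of the mature strand does not say which.

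Libraries held between 1774047 and 5592766 miRNA counts. The lowest count of any member in any library was 3724, for miR-98 in an SCG library, so counting noise is small for these members and the spread between mice sets the precision. Levels below are CPM, the count divided by the scaled library total and multiplied by 1000000, with the scaling set over all 48 libraries, whereas each log2 fold change with its standard error (SE) comes from edgeR's quasi-likelihood fit of that comparison, with p-values adjusted by Benjamini-Hochberg over every miRNA tested and called under 0.05. The miR-183 cluster of sensory neurons summed to 57037 to 88281 CPM in the TG libraries and to 221 to 21076 CPM in the SCG libraries, with the highest SCG value in 24 h saline replicate 1, so the labelled ganglia differ in this defining marker without overlap. Some libraries stood apart in marker miRNAs. SCG 7 d LPS replicate 2 had 9670.0 CPM of leukocyte markers, against 288 to 758 CPM in the other SCG libraries. It had 40.4 CPM of glial markers (373 to 1009 CPM in the others) and 35905 CPM of neuronal markers (8635 to 19127 CPM). Muscle markers were at 35395 CPM in it, and epithelial and pituitary markers at 11198 CPM. Its Pearson r of log2 CPM with the other libraries of its group was 0.724 to 0.763, against 0.984 to 0.988 among those. SCG 4 h saline replicate 1 had 94360 CPM of muscle markers, and SCG 7 d saline replicate 1 had 6814 CPM of the miR-183 cluster. TG 7 d saline replicates 1, 2 and 4 had 57730, 57504 and 53017 CPM of neuronal markers, against 26318 to 36639 CPM in the other TG libraries. The part of markers in the results was not tested, and values without these libraries are given for some of the comparisons that use them. In whole ganglia a cell type that is rarer and a cell type that holds less of a miRNA cannot be told apart.

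The 9 members together made up a large and narrow part of the miRNA counts in every library. Their summed share was 28.1% ± 2.22 (SD, n = 24) in the SCG, from 24.4% to 33.7%, and 29.9% ± 0.918 (SD, n = 24) in the TG, from 28.0% to 30.9%. The range over SCG libraries took in the whole TG range. By group the mean share lay between 26.6% ± 2.02 (SCG 4 h LPS) and 29.8% ± 1.99 (SCG 7 d saline) in the SCG, and between 29.3% ± 1.2 (7 d saline) and 30.2% ± 1.05 (24 h saline) in the TG (SD, n = 4). In the SCG the mean was lower after LPS than after saline at each time, 26.6% against 27.9% at 4 h, 28.2% against 28.5% at 24 h and 27.4% against 29.8% at 7 d, and the libraries of saline and LPS overlapped at each time. A share is bound to move when other abundant miRNAs move. Divided by the scaled library size instead of the raw total, the SCG difference at 4 h was 0.940 percentage points in the other direction, and with the marker miRNAs left out of the total the SCG difference at 7 d was 0.270 percentage points in the other direction, so neither direction is fixed.

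**Figure D1:**
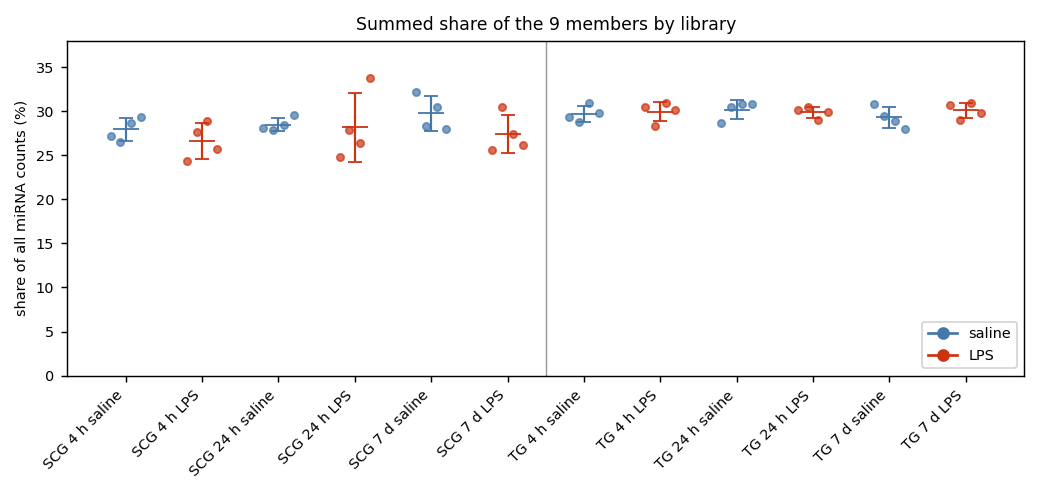
Summed share of the 9 members in all miRNA counts (percent, y axis) for each of the 12 groups (x axis), with saline in blue and LPS in red. Points are libraries, bars on the points are mean ± SD of 4 libraries; all group means lie between 26.6% and 30.2%, and the SCG libraries spread more widely than the TG libraries.

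Within that total the members were far from equal, and 4 of them, let-7f, let-7c, let-7i and let-7a, held most of it in both ganglia. Let-7f was the most abundant member, at 64049 ± 9023 CPM in the SCG and 80301 ± 4753 CPM in the TG (SD, n = 24), which is 6.70% and 7.64% of all miRNA counts. In the SCG it was followed by let-7c at 60838 ± 11974 CPM, let-7i at 53893 ± 5854 CPM and let-7a at 35249.5 ± 5473 CPM. In the TG let-7i came next, at 67523 ± 4097 CPM, before let-7c at 57721 ± 3629 CPM and let-7a at 48869 ± 3574 CPM. The leading members kept this order unevenly. Let-7f exceeded let-7c in 20 of 24 SCG libraries, and let-7c exceeded let-7i in 16 of 24. Neither step at the head of the SCG order thus held in every library, and differences between members were not tested. In the TG let-7f exceeded let-7i in 24 of 24 libraries and let-7i exceeded let-7c in 23 of 24.

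Let-7g, let-7b and let-7d formed a middle tier. Let-7g stood at 24534 ± 4087 CPM in the SCG and 30649 ± 2258 CPM in the TG. Let-7b (12754 ± 3175 CPM) lay above let-7d (10551 ± 1762 CPM) in 22 of 24 SCG libraries, while in the TG let-7d (13885 ± 1144 CPM) lay above let-7b (9938 ± 730 CPM). At the foot stood let-7e, at 3873 ± 892 CPM in the SCG and 2871 ± 187 CPM in the TG, and miR-98, at 1858 ± 220 CPM and 2077 ± 116 CPM. The most and the least abundant member share the seed, and ligation-based library kits capture different ends unequally, so an order between members is an order of counts. SDs were larger in the SCG than in the TG for all 9 members.

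**Figure D2:**
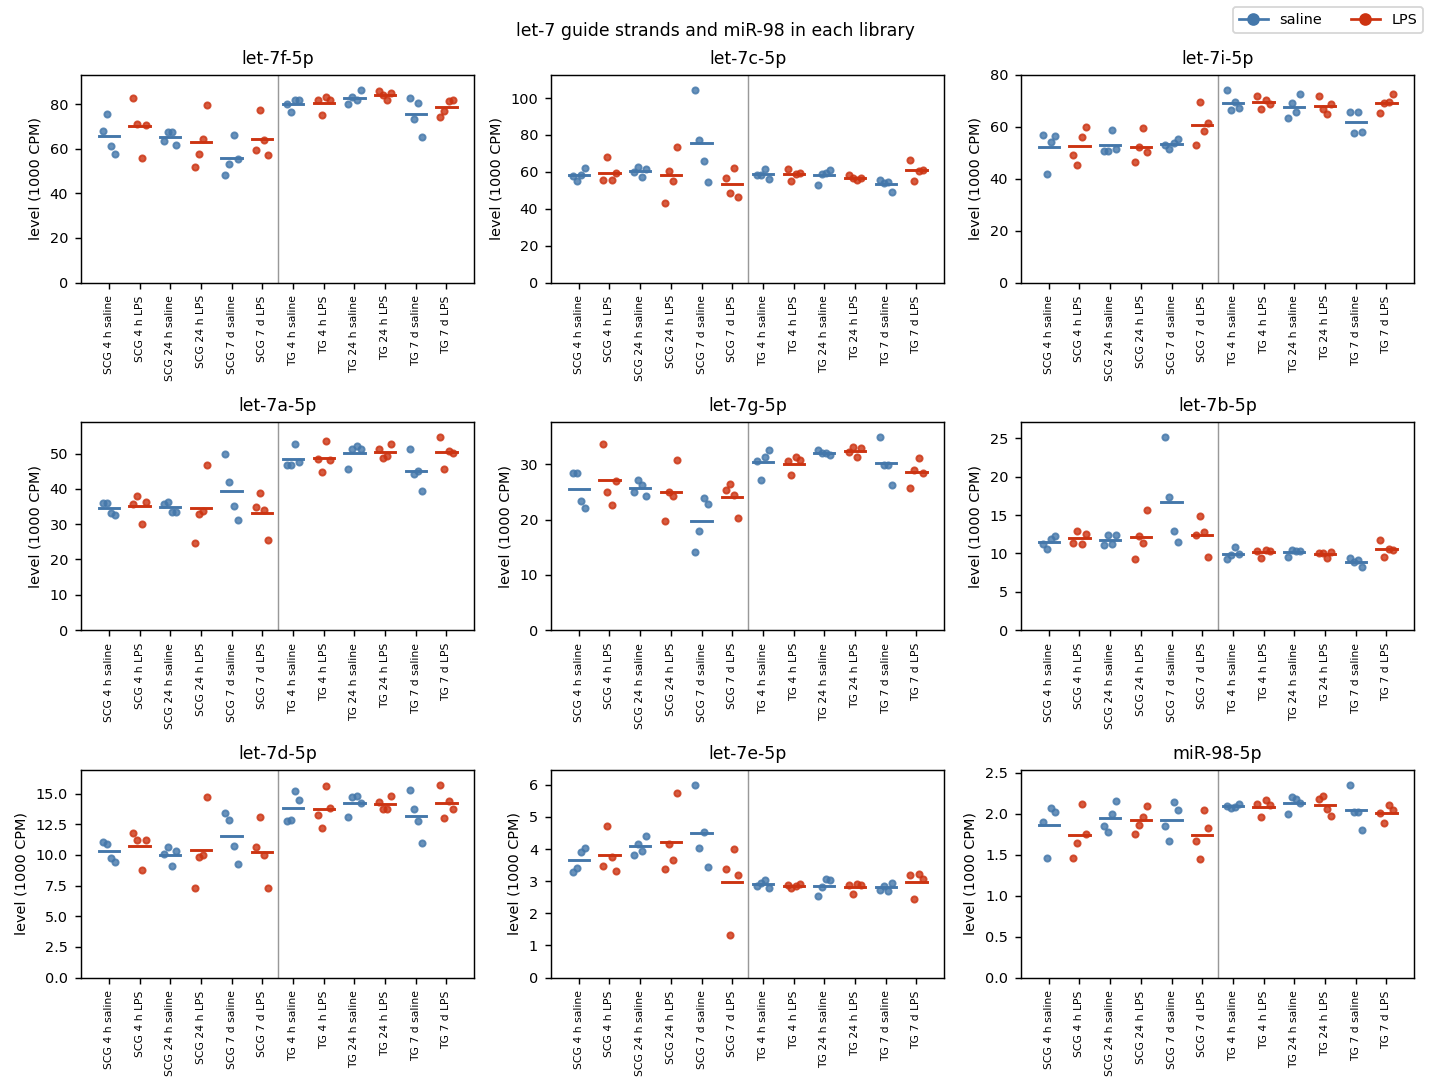
Level of each member in every library (1000 CPM, linear y axis, 1 panel per member) by group (x axis), with saline in blue and LPS in red. Points are libraries and short lines are means of 4; let-7a, let-7d, let-7f, let-7g and let-7i lie higher in the TG, let-7b and let-7e lie higher in the SCG, and SCG 7 d saline spreads widely for let-7b, let-7c and let-7g.

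Between ganglia the family split: in saline-treated mice 5 members were higher in the TG, 3 were higher in the SCG and miR-98 was not called. Let-7a, let-7d, let-7f, let-7g and let-7i rose from SCG to TG with log2 fold changes between 0.26 and 0.34, while let-7b, let-7c and let-7e fell. The 8 called of 9 stand beside 66.4% of all 541 miRNAs tested that were called in this comparison (31.4% higher and 34.9% lower in the TG), so a call between ganglia was the rule for any miRNA and the count says little about these members. All 9 passed the filter on low counts in this and every other comparison. The median log2 fold change over all miRNAs was 0.00. Cell type markers moved with this comparison as well: over all libraries glial markers (3 of 3 found) summed to 40.4 to 1009 CPM in the SCG and 1855 to 3912 CPM in the TG, and smooth muscle and mesenchyme markers (4 of 4 found) to 13930.0 to 181997 CPM in the SCG and 7091 to 24660 CPM in the TG. Their part in the member differences was not tested.

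Let-7e was the member whose saline libraries did not overlap between the ganglia. Its SCG saline libraries ran from 3275 to 5990 CPM with a median of 3976 CPM (n = 12), and its TG saline libraries from 2549 to 3061 CPM with a median of 2846 CPM (n = 12). Every SCG library thus lay above every TG library, as did every library of one ganglion for 19.6% of all miRNAs tested, and the log2 fold change was -0.58 ± 0.08 (SE, edgeR adjusted p = 6.29e-07). Let-7b, from the chromosome 15 pair, ran from 10562 to 25112 CPM (median 12078 CPM) in the SCG and from 8244 to 10871 CPM (median 9676 CPM) in the TG, which gave -0.51 ± 0.11 on the log2 scale (adjusted p = 0.000365). These groups overlapped slightly, and the highest SCG value, from 7 d replicate 1, stood far above the rest. With the 4 h and 24 h libraries alone the estimate was -0.17 (adjusted p = 0.003692), and without 6 libraries whose markers stood apart it was -0.34 (adjusted p = 0.0005741). These 6 were SCG 4 h, 24 h and 7 d saline replicate 1 and TG 7 d saline replicates 1, 2 and 4. SCG 7 d saline replicate 1 also held the highest let-7b and let-7e of the SCG, so leaving it out removes an extreme value of the members themselves. The size of the let-7b estimate depended on the 7 d libraries while the call held. For let-7e the same settings gave -0.38 and -0.51, both called. Both settings were chosen after the data were seen.

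Let-7c, which differs from let-7b at a single base and shares a locus with it, gave the least stable of the lower calls. Its SCG saline libraries ran from 54296 to 104389 CPM (median 60654 CPM) and its TG saline libraries from 49226 to 61736 CPM (median 57160 CPM), which gave -0.25 ± 0.09 (adjusted p = 0.0129). The call was lost with DESeq2 (adjusted p = 0.05195), with no filter on low counts (-0.12, adjusted p = 0.1938) and when any 1 of 7 libraries was left out, namely SCG 4 h saline replicate 4, SCG 24 h saline replicates 2 and 4, SCG 7 d saline replicate 3 and TG 7 d saline replicates 1, 2 and 4 (log2 fold changes between -0.19 and -0.14). With the 4 h and 24 h libraries alone the estimate was 0.02 (adjusted p = 0.7002), so the call for let-7c was not made once the 7 d libraries were left out, and without the 6 libraries it was -0.11 (adjusted p = 0.1184). Let-7a, let-7b, let-7d, let-7e, let-7f, let-7g and let-7i were called in the same direction in all 31 alternative settings run.

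The members higher in the TG had log2 fold changes close to each other when all 24 saline libraries were used. Let-7a ran from 31122 to 49750 CPM (median 35537 CPM) in the SCG saline libraries and from 39427 to 52657 CPM (median 47295 CPM) in the TG saline libraries, and its log2 fold change was 0.34 ± 0.07 (adjusted p = 0.000139). Its locus partner let-7d, at 10621 ± 1334 CPM and 13738 ± 1281 CPM, gave 0.31 ± 0.06 (adjusted p = 0.000252). Let-7f, the other member of that locus, gave 0.29 ± 0.06 (adjusted p = 0.000138), from 62133 ± 7567 CPM to 79451 ± 5630 CPM. So all 3 members with a hairpin on chromosome 13 were higher in the TG, though the ranges overlapped for each.
Let-7g went from 23659 ± 4218 CPM to 30917 ± 2373 CPM (log2 fold change 0.32 ± 0.08, adjusted p = 0.000969), and let-7i from 52759 ± 4364 CPM to 66194 ± 4984 CPM (0.26 ± 0.05, adjusted p = 0.00013). MiR-98 differed by 0.06 ± 0.05 (adjusted p = 0.334), with 1912 ± 206 CPM in the SCG and 2087 ± 134 CPM in the TG. Without trimmed-mean scaling its estimate was -0.02, and with the 4 h and 24 h libraries alone it was 0.20 and called (adjusted p = 0.01178), so its direction is not settled. That setting also set the members apart from each other: let-7a was at 0.55, let-7d at 0.51 and let-7i at 0.43, against 0.36 for let-7f and 0.33 for let-7g, all 5 called. Without the 6 libraries whose markers stood apart the 5 lay between 0.30 (let-7g) and 0.45 (let-7a), and all were called, with 0.40 for let-7d and 0.35 for let-7i.

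In the LPS-treated mice, a separate set of 24 libraries, the split was nearly the same, and the 8 called members stand beside 51.6% of all 560 miRNAs tested. Let-7a was higher in the TG by 0.52 ± 0.09 (adjusted p = 3.1e-05), let-7d by 0.40 ± 0.10 (adjusted p = 0.00263) and let-7i by 0.31 ± 0.06 (adjusted p = 0.000296). These 3 were called in all 30 alternative settings. Let-7f (0.28 ± 0.08, adjusted p = 0.00397) was called in 29 of 30, but let-7g (0.24 ± 0.08, adjusted p = 0.0129) in only 13 of 30 and miR-98 (0.19 ± 0.06, adjusted p = 0.018) in only 11 of 30. Leaving out any 1 of 14 libraries ended the let-7g call (0.17 to 0.21, adjusted p between 0.0636 and 0.102), and any 1 of 16 the miR-98 call (0.13 to 0.16, adjusted p between 0.0591 and 0.128). The median over all miRNAs was -0.11 here, so each of these estimates lies farther above it than above 0.
On the other side, let-7b was lower in the TG by a log2 fold change of -0.27 ± 0.08 (adjusted p = 0.00792) and let-7e by -0.34 ± 0.13 (adjusted p = 0.0359). Both estimates lie less far below the median over all miRNAs (-0.11) than below 0. The let-7e libraries overlapped after LPS, with 1336 to 5740 CPM (median 3552 CPM) in the SCG and 2444 to 3221 CPM (median 2886 CPM) in the TG. The lowest of these SCG values is the library with high leukocyte markers. The let-7e call was lost without any 1 of TG 4 h LPS replicates 2 and 4 and TG 24 h LPS replicates 3 and 4 (-0.34 to -0.31, adjusted p between 0.0533 and 0.0769), and with the 4 h and 24 h libraries alone it was -0.54 (adjusted p = 0.0008281). Let-7c differed by 0.03 ± 0.07 (adjusted p = 0.747). Whether the let-7c difference between ganglia depends on treatment is the interaction tested further on.

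**Figure D3:**
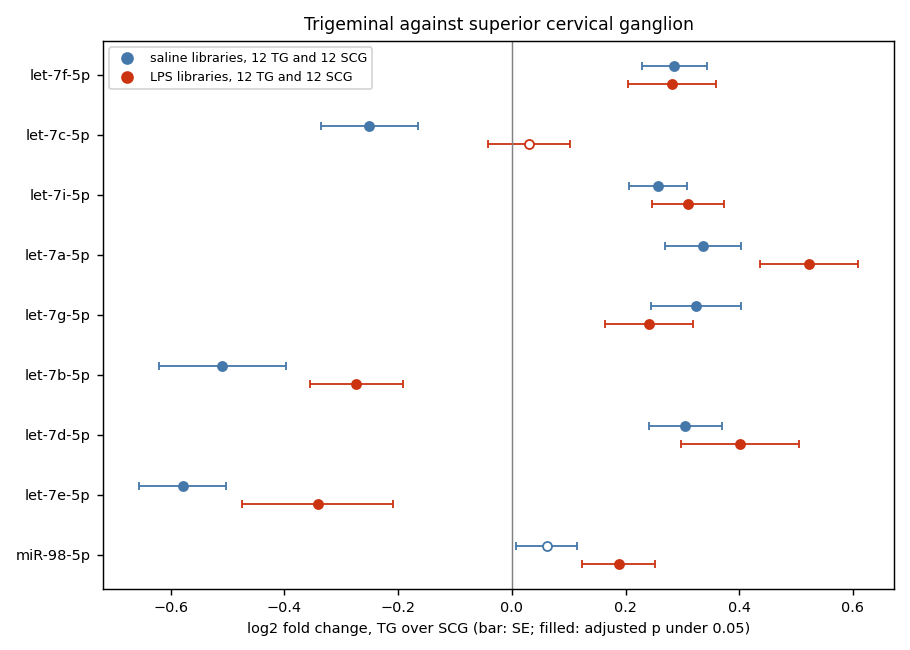
Log2 fold change of TG over SCG (x axis) for each member (y axis), saline libraries in blue and LPS libraries in red, bars ± SE, filled where the edgeR adjusted p is under 0.05. Let-7a, let-7d, let-7f, let-7g and let-7i lie right of 0 and let-7b and let-7e left of 0 in both treatments, let-7c is called in saline alone and miR-98 in LPS alone.

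Taken group by group, with 4 TG against 4 SCG libraries at each time and treatment, the TG mean was the higher in 6 of 6 group pairs for let-7a, let-7d, let-7f, let-7g, let-7i and miR-98, and in 0 of 6 for let-7b. For let-7e it was the higher in 1 of 6 and for let-7c in 2 of 6. The 4 libraries of one ganglion all lay beyond the 4 of the other in 5 of 6 pairs for let-7a, let-7e and let-7i, in 3 of 6 for let-7b, let-7d, let-7f and let-7g, and in 0 of 6 for let-7c and miR-98. Of all miRNAs tested between ganglia, 45.1%, 50.1% and 39.2% did not overlap in the saline pairs at 4 h, 24 h and 7 d, and 39.3%, 47.3% and 28.9% in the LPS pairs. Separation of this kind was thus common among all miRNAs, and among the members it was most frequent for let-7a, let-7e and let-7i.

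The other strand and the neighbouring miRNAs of the same transcripts were examined for the same comparison, from a list of the passenger strands and of the miR-99, miR-100 and miR-125 miRNAs that share primary transcripts with let-7 hairpins. Passenger strands are the other strands of the duplexes and are mostly discarded, and most were rare. In the saline libraries 9 of 12 passenger strands were tested, of which 6 were higher in the TG and 0 lower, beside 31.4% and 34.9% of all miRNAs. Let-7d-3p, the most abundant of them, was at 1013 ± 224 CPM in the SCG and 1478 ± 160 CPM in the TG (log2 fold change 0.49 ± 0.10, adjusted p = 0.000166), and let-7i-3p at 8.35 ± 2.31 CPM and 15.1 ± 2.12 CPM (0.80 ± 0.13, adjusted p = 1.17e-05). Both moved the same way as their guides, which were higher in the TG. Of the 9 passenger strands tested, 8 had positive estimates, and the lowest estimate was -0.007. Among the strands tested, no estimate was thus as low as those of the guides let-7b, let-7c and let-7e. The let-7c call itself was lost in several settings, and strands not tested are not covered. The rows of let-7a-1-3p and let-7c-2-3p held identical counts in 48 of 48 libraries and cannot be told apart.
Of 11 neighbouring miRNAs tested, 5 were higher and 2 lower in the TG. MiR-99a-5p, beside let-7c-1, was higher by 0.39 ± 0.07 (adjusted p = 6.31e-05) and miR-100-5p, beside let-7a-2, by 0.56 ± 0.10 (adjusted p = 5.25e-05). Near let-7e, miR-125a-5p differed by -0.11 ± 0.09 (adjusted p = 0.294) and miR-125a-3p was lower by -0.64 ± 0.07 (adjusted p = 3.92e-08). So let-7c was lower in the TG in saline while the neighbour of one of its hairpins was higher. MiR-125a-3p was lower together with let-7e, while miR-125a-5p was not called. For miR-99b-5p, also on the list, the median ratio of let-7e to it was 0.69 in the 24 SCG libraries and 0.489 in the 24 TG libraries, treatments pooled. Let-7e thus fell relative to miR-99b-5p from SCG to TG, a difference that was not tested.

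After LPS no member was called at 4 h or 24 h in either ganglion. In the TG at 4 h the 9 log2 fold changes lay between -0.02 and 0.03, and at 24 h between -0.03 and 0.03, each with an SE between 0.06 and 0.08. In the SCG they lay between -0.13 and 0.06 at 4 h and between -0.02 and 0.11 at 24 h, with SEs between 0.12 and 0.24. Of all miRNAs tested, 0% were called in the SCG and 0% in the TG at 4 h, and 0.395% and 0.372% at 24 h, so few calls were made on any miRNA at these times. At an unadjusted p under 0.05 no member passed in the SCG, where 2.57% and 4.74% of all miRNAs did at 4 h and 24 h, or in the TG, where 2.79% and 4.28% did, and DESeq2 called no member at these times in either ganglion. The SEs bear on what size of change could have been seen, which was smaller in the TG than in the SCG.

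At 7 d in the TG 1 member, let-7b, was higher after LPS. Of all 538 miRNAs tested, 6.13% were called in either direction and 1.86% were called as higher. Its 4 saline libraries held 9452, 8879, 9118 and 8244 CPM and its 4 LPS libraries 11767, 9469.9, 10539 and 10423 CPM. Every LPS library lay above every saline library, by a narrow margin for replicate 2, as was so for 3.16% of all miRNAs. The means were 8923 ± 510 CPM and 10549.7 ± 942 CPM (SD, n = 4), and the log2 fold change was 0.24 ± 0.06 (edgeR adjusted p = 0.0231).
Its locus partner let-7c held 55593, 53715, 54569 and 49226 CPM after saline and 66589, 54828, 60446 and 61259 CPM after LPS. The let-7c groups overlapped through LPS replicate 2, and the log2 fold change was 0.19 ± 0.06 (adjusted p = 0.0579). Let-7i (0.17 ± 0.06, adjusted p = 0.0879) and let-7a (0.16 ± 0.07, adjusted p = 0.15) had estimates in the same direction and were not called, and 4 of 9 members had an unadjusted p under 0.05, beside 23% of all miRNAs. With DESeq2 let-7c was called as well (adjusted p = 0.0418).

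The let-7b call at 7 d held without any single saline library (0.24 to 0.27, adjusted p between 0.01233 and 0.04852) and was lost in other settings. TG 7 d saline replicates 1, 2 and 4 are the libraries with the high neuronal markers, and without them the estimate was 0.23 (adjusted p = 0.8692), with 1 saline library left whose spread is assumed to be like that of the other groups. When the TG saline libraries of the earlier times were used as controls, the 7 d LPS libraries were higher by 0.08 (adjusted p = 0.8925). The call was also lost without TG 7 d LPS replicate 1 (0.19, adjusted p = 0.06799) and without trimmed-mean scaling (0.16, adjusted p = 0.1039). The saline libraries themselves held less let-7b at 7 d than at 4 h and 24 h (8923 ± 510 CPM against 10051 ± 533 CPM, log2 fold change -0.16 ± 0.05, adjusted p = 0.0512). In that edgeR comparison of saline libraries 0 members were called, beside 13.6% of all miRNAs, and all 9 estimates were negative, from -0.16 to -0.03. At an unadjusted p under 0.05 let-7b, let-7c and let-7i passed, 3 of 9 beside 28.4% of all miRNAs, and DESeq2 called let-7b. It shares the 7 d saline libraries with the LPS comparison, so the values are set side by side and are not independent. The difference between the LPS effect at 7 d and its mean at 4 h and 24 h was 0.24 ± 0.08 for let-7b (adjusted p = 0.0927). In edgeR 0 members were called for this difference, beside 2.23% of all miRNAs, 3 of 9 had an unadjusted p under 0.05, beside 19.1%, and DESeq2 called let-7b.

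**Figure D4:**
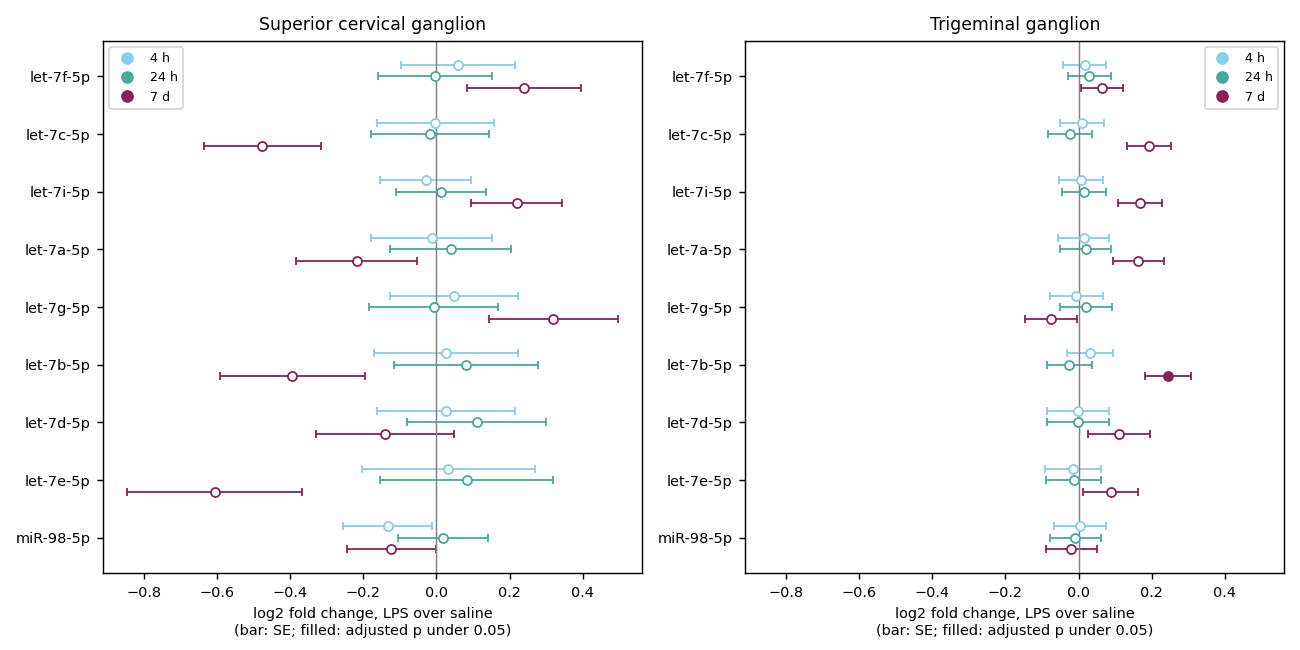
Log2 fold change of LPS over saline (x axis) for each member (y axis) at 4 h, 24 h and 7 d, SCG in the left panel and TG in the right, bars ± SE, filled where the edgeR adjusted p is under 0.05. The TG estimates at 4 h and 24 h lie between -0.03 and 0.03, let-7b in the TG at 7 d (0.24) carries the one filled point, and the SCG estimates at 7 d run from -0.61 to 0.32.

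In the SCG at 7 d the estimates were the largest of any time and went both ways, and 0 members were called, beside 0.593% of 506 miRNAs (edgeR). Let-7c and let-7e had an unadjusted p under 0.05, 2 of 9 beside 20.4% of all miRNAs, and DESeq2 called no member. Let-7e held 5990, 4027, 4517 and 3429 CPM after saline and 3385, 1336, 4014 and 3185 CPM after LPS (log2 fold change -0.61 ± 0.24, adjusted p = 0.161). Let-7c held 104389, 77140, 65917 and 54296 CPM after saline and 56442, 48345, 62336 and 46174 CPM after LPS (-0.48 ± 0.16, adjusted p = 0.128). Let-7b held 25112, 17374, 12906 and 11537 CPM after saline and 12440, 14851, 12757 and 9559 CPM after LPS (-0.39 ± 0.20, adjusted p = 0.267). In each of the 3 the highest saline library was replicate 1 and the groups overlapped.
Let-7g, by contrast, held 14128, 17885, 23953 and 22825 CPM after saline and 25295, 26522, 24425 and 20369 CPM after LPS (0.32 ± 0.18, adjusted p = 0.32), with its lowest value in that same saline replicate 1. Let-7f and let-7i had estimates of 0.24 and 0.22, and neither was called. In saline replicate 1 let-7a, let-7b, let-7c and let-7e were therefore at their highest of all SCG libraries while let-7f and let-7g were at their lowest, and this library also had 6814 CPM of the miR-183 cluster.

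A single library moved these values. Without SCG 7 d saline replicate 1 the estimates were -0.15 for let-7b, -0.28 for let-7c and -0.40 for let-7e. Without SCG 7 d LPS replicate 2, the library apart in several kinds of marker, they were -0.49, -0.42 and -0.34. When the saline libraries of the earlier times were used as controls, the let-7b estimate turned to 0.12, with -0.13 for let-7c and -0.37 for let-7e, and that of let-7g turned to -0.05, with 0.02 for let-7f. Without SCG 7 d saline replicate 1 let-7g was at 0.18 and let-7f at 0.17, and without SCG 7 d LPS replicate 2 at 0.26 and 0.13. Among the saline libraries alone let-7b was at 16732 ± 6117 CPM at 7 d and 11638 ± 700 CPM at the earlier times (0.52 ± 0.17, adjusted p = 0.742), and let-7g at 19698 ± 4553 CPM and 25639 ± 2372 CPM (-0.37 ± 0.15, adjusted p = 0.946). In that edgeR comparison 0 members were called, beside 0% of all miRNAs, 3 of 9 had an unadjusted p under 0.05, beside 4.35%, and DESeq2 called no member. For the LPS effect at 7 d minus its mean at the earlier times in the SCG 0 members were called as well, beside 0%, with 2 of 9 at an unadjusted p under 0.05, beside 9.49%, and none by DESeq2.

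Whether LPS moved the members differently in the 2 ganglia was tested as an interaction at each time. At 4 h and 24 h 0 members were called, beside 0% of 577 miRNAs, and none had an unadjusted p under 0.05, beside 3.47% at each time, or was called by DESeq2. At 7 d the LPS effect in the TG minus that in the SCG was 0.69 ± 0.18 for let-7c (adjusted p = 0.0544), 0.66 ± 0.21 for let-7b (adjusted p = 0.0675) and 0.70 ± 0.26 for let-7e (adjusted p = 0.119), so edgeR called 0 of 9, beside 0.347% of all miRNAs. At an unadjusted p under 0.05 5 of 9 passed, beside 23.2%, and DESeq2 called let-7b, let-7c and let-7e. These differences use the same 7 d saline libraries as the comparisons within each ganglion.

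Females and males were compared within each ganglion over all times and treatments, 12 against 12. No member was called in the TG, where 0% of miRNAs were, or in the SCG, where 0.988% were (edgeR). At an unadjusted p under 0.05 0 members passed in the TG, beside 4.46% of all miRNAs, and 1 in the SCG, beside 14%. MiR-98, the member with its only hairpin on the X chromosome, came nearest in the SCG. It ran from 1449 to 1900 CPM (median 1713 CPM) in females and from 1748 to 2161 CPM (median 2043 CPM) in males, with 10 of 12 males above every female. The means were 1696 ± 167 CPM and 2019 ± 126 CPM (SD, n = 12), and the log2 fold change was 0.26 ± 0.07 (adjusted p = 0.0699). DESeq2 called it (adjusted p = 9.1e-05), and so did edgeR without SCG 7 d LPS replicate 2 (0.24, adjusted p = 0.01139). In the TG the estimate was -0.03 (adjusted p = 0.984), with medians of 2080 CPM in females and 2090.5 CPM in males. Whether the difference between the sexes differs between the ganglia was not tested.

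Members varied together across libraries in some pairs from 1 locus and not in others, and in some pairs from different loci. Over the 24 SCG libraries let-7a and let-7d, both from chromosome 13, gave a Pearson r of 0.954 and a Spearman rho of 0.951 (0.959 without the 2 libraries farthest from the median), and over the 24 TG libraries 0.924 and 0.892 (0.866). The ratio of let-7a to let-7d stayed between 2.96 and 3.72 in the SCG and between 3.23 and 3.68 in the TG. For let-7b and let-7c, from chromosome 15, r was 0.870 in the SCG (rho 0.735) and 0.918 in the TG (rho 0.880). Leaving out the 2 farthest libraries gave 0.667 and 0.835. Without SCG 7 d LPS replicate 2, where let-7b was high relative to let-7c (a ratio of 0.307 against a median of 0.204), the SCG r was 0.967. Let-7f, the other member of the chromosome 13 locus, gave lower values with let-7a (0.284 in the SCG and 0.717 in the TG) and with let-7d (0.441 and 0.624). Let-7a also varied with let-7b (0.852 in the SCG and 0.870 in the TG) and with let-7c (0.820 and 0.796), members of another locus, so a high r was not particular to locus partners.
Let-7f and miR-98, which share the X locus, gave an r of -0.365 in the SCG (rho -0.255) and of 0.717 in the TG (rho 0.713), where let-7f was the member closest to miR-98. Let-7f and let-7g, which has a locus of its own, gave 0.884 in the SCG and 0.768 in the TG. Over the 36 pairs of members the median r was 0.04 in the SCG, with 17 pairs negative, and 0.535 in the TG, with 3 negative. These are descriptions of libraries that share depth, scaling and cell composition, with groups pooled, and reads split between near-identical members could add to or take from any of them.

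**Figure D5:**
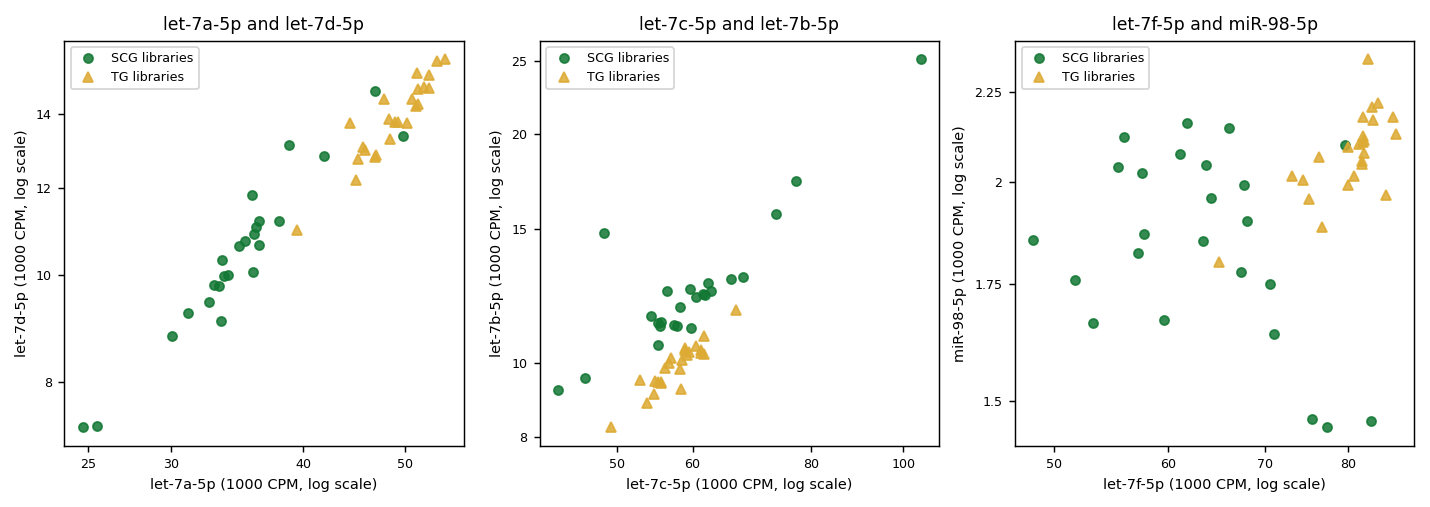
Levels (CPM, both axes logarithmic) of let-7a against let-7d, let-7c against let-7b and let-7f against miR-98 in the 48 libraries, SCG as green circles and TG as yellow triangles. Let-7a and let-7d lie along 1 line in both ganglia, let-7b and let-7c along a line that lies lower in the TG, and let-7f and miR-98 form a cloud in the SCG.

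By the rule fixed for likeness, the highest Pearson r of log2 CPM over the 48 libraries among miRNAs outside the family, let-7a and let-7d were most like let-7d-3p (r of 0.913 and 0.860), the passenger strand of the let-7d hairpin. Let-7f and let-7g were both most like miR-26b-5p (0.896 and 0.851), and let-7e was most like miR-6540-5p (0.898). Let-7i was most like miR-7043-3p (0.838), and miR-98 most like miR-6516-5p (0.750). With both ganglia pooled in this way, let-7b and let-7c had weaker best matches, miR-342-5p (0.635) and miR-23b-5p (0.680). Let-7a and let-7d thus shared a match, as did let-7f and let-7g, and the difference between ganglia enters all of these values. Within the 24 TG libraries let-7b, let-7c and let-7d were each most like miR-423-5p (0.784, 0.784 and 0.818). Within the 24 SCG libraries let-7b was most like miR-423-5p (0.880) and let-7c most like miR-23b-5p (0.715). Let-7e was most like miR-3099-3p in the SCG (0.897) and miR-380-5p in the TG (0.575), and miR-6540-5p was its closest match in neither.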

How the data were processed

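Small RNA libraries were prepared with a ligation-based kit, per the labels' protocols. The authors deposited counts per mature miRNA with no normalisation; FastQC 0.11.9 and GRCm39 are named per the submitters' processing notes, and for the aligner, the counter and reads that fit several miRNAs nothing is given in the sources used here. Counts were tested with edgeR 4.0.16 (R 4.3.3): TMM scaling, filterByExpr with a minimum count of 10, robust quasi-likelihood fits within each ganglion (groups and sex), or on both ganglia for differences between them, and Benjamini-Hochberg adjustment over all miRNAs tested, called under 0.05. The SE is the absolute log2 fold change divided by the square root of F. In all, 17 comparisons were made. Replicates came from different mice and are numbered in label order, so numbers pair nothing. Closeness of replicates was checked by a chi-square test of their counts over miRNAs, and no 2 libraries of 1 group, over 72 pairs, agreed within sampling noise. The scripts were tested on simulated data. Genes named are all 9 members, plus, for each, the miRNA outside the family with the highest correlation over the 48 libraries. For some members the closest one within a ganglion was named as well. Passenger strands and neighbours were named with a test where they were called or the most abundant of their list. MiR-125a-5p, not called in saline, was named beside miR-125a-3p, and miR-99b-5p was named for its ratio to let-7e. Let-7k and miR-1961 were named for their seed. The members and the lists (passenger strands, neighbours, markers) were chosen with earlier results of these data known. Alternatives included DESeq2 1.42.0, other scaling and filters, no sex term and each library left out. 3 more were chosen after seeing the data: 4 h and 24 h libraries alone for both ganglion comparisons, and leaving out 6 libraries with marker levels apart for the saline comparison. Sequences and loci come from RefSeq tables of GRCm38.p6.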

Additional observations from a re-analysis of the deposited data

Results flagged for a closer look

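Of 120 values of a member or of the family share in a group of 4, 6 had 1 library far from the other 3, by Dixon's ratio of the gap to the range; chance flags about 1 in 20 groups. In the TG at 4 h, let-7a was at 52660.0 CPM in saline replicate 3 (the others at 46802 to 47719 CPM) and let-7f at 75160.0 CPM in LPS replicate 2 (81955 to 83310 CPM). In TG 24 h saline replicate 1 both let-7a (45580.0 CPM, the others at 51203 to 52014 CPM) and let-7b (9509 CPM, the others at 10305 to 10409 CPM) were low. Let-7e was at 2613 CPM in TG 24 h LPS replicate 2 (2881 to 2908 CPM), and let-7i at 58590.0 CPM in SCG 24 h saline replicate 3 (50514 to 51273 CPM).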

How the results depend on the processing

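No paired analysis was possible because replicate numbers follow label order and no label ties 2 libraries to a mouse or batch. Depth was no limit for these members; the spread between SCG libraries was. Counts of members called kept within 1.5 times their value except as follows, and the cause was not tested. For LPS against saline in the TG at 7 d (1 called), 0 were called without TMM, with no filter on low counts, without saline replicates 1, 2 and 4, with the 8 libraries of that time alone or with the earlier saline libraries as controls, 2 with DESeq2 or no sex term, and 0 to 3 when each library was left out. DESeq2 called 1 member for sex in the SCG (0 to 1 with each library left out), 1 for the change in LPS effect at 7 d in the TG (0 to 2), and 1 for saline at 7 d in the TG, as did the fit with no sex term (0 to 3). For the interaction at 7 d, 1 was called with DESeq2's size factors in edgeR, without TMM or with no sex term, 3 with DESeq2, and 0 to 3 with each library left out. With no filter on low counts 3 members instead of 8 differed between ganglia after LPS. Let-7c between ganglia in saline turned to 0.02 with the 4 h and 24 h libraries alone, a setting chosen after seeing the data. The family share, LPS minus saline, moved with the scaled library size as denominator from -1.291 to 0.9399 percentage points in the SCG at 4 h and from 0.8261 to 2.454 in the TG at 7 d, and without marker miRNAs in the denominator from -2.346 to 0.2704 in the SCG at 7 d. TG minus SCG moved in saline from 1.002 to 2.967 without markers and 4.003 with the scaled size, and after LPS from 2.566 to 5.244 with the scaled size. Without TMM the median of all miRNAs between ganglia after LPS was -0.23 (-0.11 with it). Of 3303 single-member estimates under alternatives, 354 changed sign with no call on either side and 1 with a call.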

Other observations

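After LPS the passenger strands and neighbouring miRNAs split between ganglia much as in saline. Of 10 passenger strands tested, 6 were higher in the TG and 0 lower, and of the neighbours 5 of 11 were higher and 1 lower, beside 51.6% of all 560 miRNAs called in either direction. Let-7d-3p was at 933 ± 117 CPM in the SCG and 1515 ± 148 CPM in the TG (SD, n = 12), with no overlap (log2 fold change 0.68 ± 0.09, edgeR adjusted p = 1.29e-06). MiR-100-5p, encoded near let-7a-2, was higher in the TG by 0.66 ± 0.09 (adjusted p = 4.22e-06) and miR-125a-3p, encoded near let-7e, lower by -0.54 ± 0.10 (adjusted p = 6.44e-05). Let-7k, a rare row with the same seed, was at 4.61 ± 1.64 CPM in the SCG and 3.20 ± 0.621 CPM in the TG (-0.51 ± 0.17, adjusted p = 0.0178). No passenger strand or neighbour was called for LPS against saline in either ganglion at any time by edgeR. At an unadjusted p under 0.05, 1 passenger strand passed at 7 d in each ganglion and 1 neighbour at 7 d in the TG, beside 20.4% of all miRNAs in the SCG and 23% in the TG, and 0 at 4 h and 24 h. In the TG saline libraries 2 of them were lower at 7 d than at the earlier times, beside 13.6% of all miRNAs called: let-7d-3p, at 1282 ± 37.7 CPM against 1576 ± 82.6 CPM (-0.29 ± 0.06, adjusted p = 0.00516), and miR-99a-5p (-0.22 ± 0.07, adjusted p = 0.0372). Among these 7 d saline libraries are the 3 with the high neuronal markers, whose part in this was not tested.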
